A study of Arundinella anomala and Arundinella fluviatilis and Arundinella hirta with 8 samples.

Results

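The leaf transcriptome of *Arundinella nepalensis* was compared with those of 3 species of its genus, *A. anomala*, *A. fluviatilis* and *A. pubescens*, with 1 RNA sequencing library per species. These 4 libraries come from a series of 8, all from grasses that the submitters describe as C4 species. Per the labels, each library was made from total RNA of the third leaf of mature, wild-type plants kept in a growth room at 22 °C under 16 h of light and 8 h of dark. The 3 congeners were chosen because their libraries list nearly equal, large numbers of genes above 0. Values are FPKM, fragments scaled by sequence length and library size, listed by the authors under maize protein models and summed here per maize gene model. Of 26274 genes in the table, 14088 were above 0 in all 4 libraries and form the main set. A second set held the genes at no less than 100 FPKM on one side and under 1 FPKM on the other, 40 with *A. nepalensis* on the high side and 40 with it on the low side.

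Each difference is log2(FPKM + 1) in *A. nepalensis* minus the mean log2(FPKM + 1) of the 3 congeners. This scale understates the change of weakly expressed genes. A gene was counted as shifted when the difference reached 2 log2 units, which is 4-fold on FPKM + 1, and the *A. nepalensis* value lay outside the range of the 3 congeners. No species was sequenced a second time, so differences between species cannot be told apart from differences between plants or libraries, and no test was made. The spread given is that among the 3 congeners. Since leaves were taken whole, a smaller share of a cell type and less RNA per cell cannot be told apart. Sequencing depth is unknown, since only FPKM values are given. The table also carries no gene names: the enzyme names below are those of the maize gene models, written from general knowledge, and they could not be checked in the files.

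In C4 grasses, carbonic anhydrase and PEP carboxylase of the mesophyll fix carbon into malate and aspartate. These acids move to the bundle sheath, and in *Arundinella* also to separate strands called distinctive cells, where a decarboxylating enzyme frees CO2 beside Rubisco. Pyruvate orthophosphate dikinase then renews the acceptor PEP, and envelope transporters carry the intermediates in and out of the chloroplast. Rubisco, its activase and the rest of the Calvin cycle turn the CO2 into triose phosphate.

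The library labelled *A. nepalensis* was low in the maize gene models of several C4 enzymes, among them the C4 forms of PEP carboxylase and NADP-malic enzyme, and high in Rubisco small subunit and Rubisco activase. Low values of these C4 forms were not particular to it. C4 PEP carboxylase was listed at 0 in *A. hirta*, *Bothriochloa ischaemum* and *Capillipedium parviflorum*, and at 11746 FPKM in *Imperata cylindrica*. The C4 NADP-malic enzyme was at 0, 7.97, 0 and 4049 FPKM in the same order. Those libraries listed 8142 to 10697 genes above 0, against 18023 in *A. nepalensis*. In *A. hirta*, though, another PEP carboxylase gene (GRMZM2G074122) was at 4927 FPKM, against 240 FPKM in *A. nepalensis*. That gene was at 19.05 FPKM in *B. ischaemum* and 12.85 FPKM in *C. parviflorum*, and listed at 0 in *I. cylindrica*. Of the 14 gene models of the C4 list, 7 were shifted lower, 2 were shifted higher and 5 were neither. Among all 25211 genes above 0 in at least 1 of the 4 libraries, 11.4% were shifted lower and 8.99% higher. That background was not matched to the list in level, and a gene weak in the congeners can hardly be shifted lower on this scale. The median difference of the C4 list was −2.77 log2 units, against −0.23 for those 25211 genes, and it includes 2 genes listed at 0 in *A. nepalensis* whose difference rests on the pseudocount of 1. The 14 genes summed to 0.222% of all FPKM in *A. nepalensis*, against 1.47% in *A. anomala*, 5.41% in *A. fluviatilis* and 1.79% in *A. pubescens*. The cause of these low values was not tested. Nothing in the values used here checks which species the library holds or the state of its plants, so each difference is that of the library labelled *A. nepalensis*. Values are listed per maize sequence, so a gene whose sequence lies far from maize may be listed low. Among 4 further gene models, 3 of the same enzyme families and the regulatory protein of the dikinase, 1 was shifted lower, none higher and 3 neither, with a median of −0.97.

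**Figure D1:**
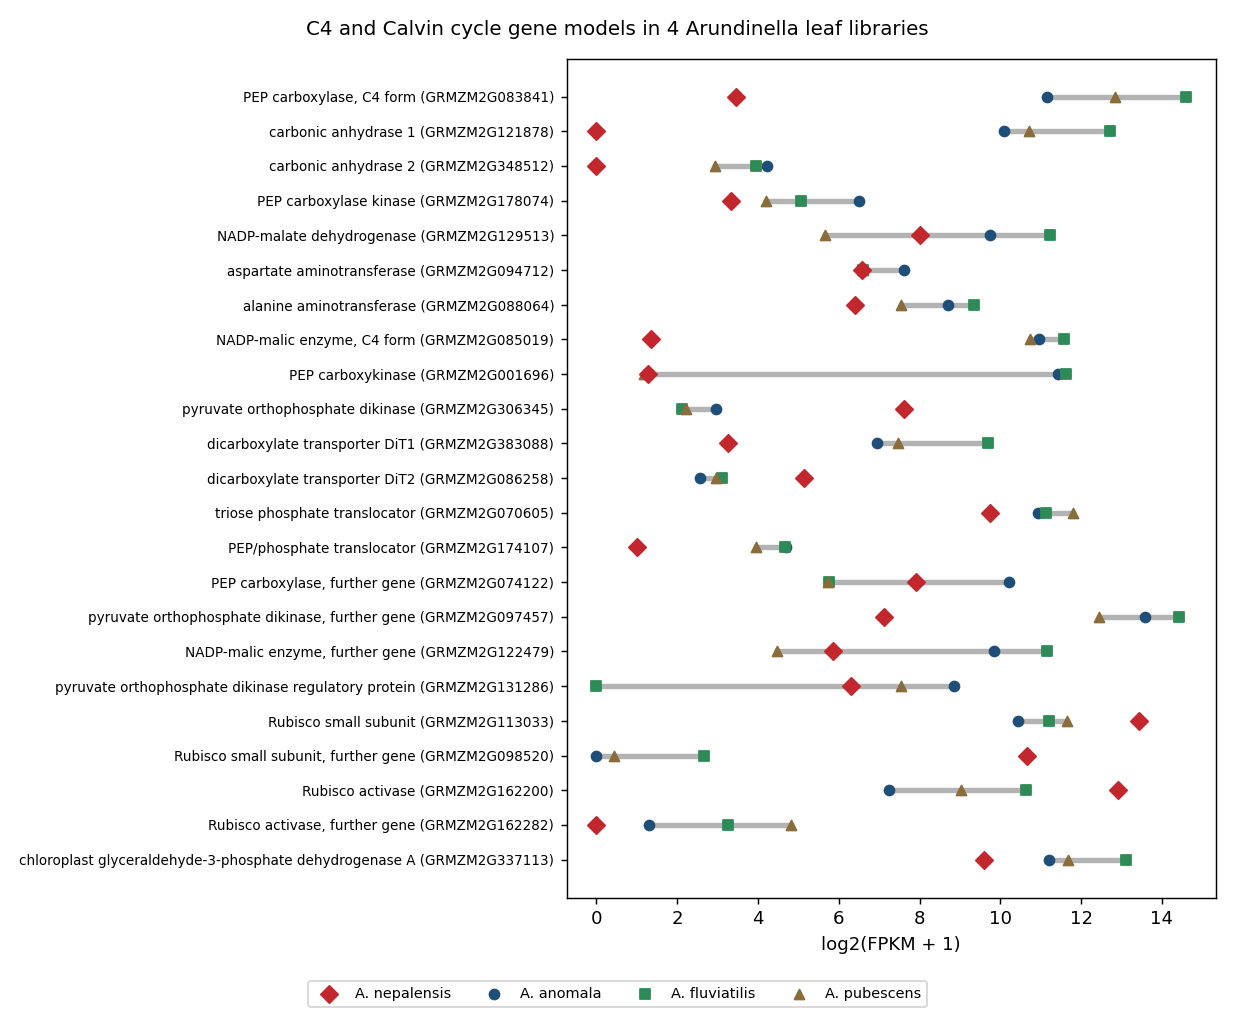
Level of 23 C4 and Calvin cycle gene models in log2(FPKM + 1), with *A. nepalensis* as red diamonds, the 3 congeners as other symbols and a grey line over the range of the congeners. The C4 PEP carboxylase stood at 10.02 FPKM in *A. nepalensis*, against 2285 FPKM or more in each congener, while the Rubisco small subunit stood at 11028 FPKM in *A. nepalensis* and at 3209 FPKM or less in each congener.

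Gene models of carbon fixation were among those furthest below the congeners. PEP carboxylase of the C4 type (GRMZM2G083841), the enzyme of the first fixation, was at 10.02 FPKM in *A. nepalensis*, against 2285 in *A. anomala*, 24807 in *A. fluviatilis* and 7380 in *A. pubescens*. It ranked 10267th in *A. nepalensis* and 21st, 1st and 7th in those congeners. *A. nepalensis* lay below all 3 congeners, as in 28.3% of the 14088 genes above 0 in all 4 libraries. The difference was −9.41 log2 units, where the congeners averaged 12.87 ± 1.72 (SD, n = 3). Another PEP carboxylase gene (GRMZM2G074122) was at 240 FPKM in *A. nepalensis*, against 1181, 52.7 and 51.9 in *A. anomala*, *A. fluviatilis* and *A. pubescens*. Here *A. nepalensis* lay inside the range of the congeners, and without *A. anomala* it was shifted higher. Both genes together gave 250 FPKM in *A. nepalensis*, against 3467, 24860 and 7432 FPKM in the same congeners, so the sum stayed low.

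Carbonic anhydrase 1 (GRMZM2G121878), the source of bicarbonate for PEP carboxylase, was listed at 0 in *A. nepalensis*, against 1083 FPKM in *A. anomala*, 6685 in *A. fluviatilis* and 1684 in *A. pubescens*. It belongs to the 40 genes under 1 FPKM in *A. nepalensis*, against 100 or more in each congener. Carbonic anhydrase 2 (GRMZM2G348512) was also listed at 0 in *A. nepalensis*, and it was weak in the congeners at 17.8, 14.4 and 6.61 FPKM. PEP carboxylase kinase (GRMZM2G178074), which adjusts the activity of PEP carboxylase, was at 9.12 FPKM in *A. nepalensis*, against 89.7 in *A. anomala*, 32.3 in *A. fluviatilis* and 17.4 in *A. pubescens*. It lay below all 3 congeners by a difference of −1.91, just short of the 2 log2 units counted as shifted, and it reached that mark without *A. fluviatilis*, without *A. pubescens*, with a pseudocount of 0.1 at −2.01 and with the highest protein model at −2.63.

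The enzymes that form malate, aspartate and alanine differed less than the C4 PEP carboxylase and carbonic anhydrase 1. NADP-malate dehydrogenase (GRMZM2G129513), the chloroplast enzyme that reduces oxaloacetate to malate, was at 258 FPKM in *A. nepalensis*, against 852, 2410 and 49.3 FPKM in *A. anomala*, *A. fluviatilis* and *A. pubescens*. The *A. nepalensis* value lay inside the congeners' range, above *A. pubescens*. The difference was −0.86, and it was 0.32 without *A. fluviatilis*. Aspartate aminotransferase (GRMZM2G094712), which makes aspartate, was at 94.3 FPKM in *A. nepalensis*, against 195, 96.0 and 96.1 FPKM in the same congeners. The difference was −0.37, the smallest in size of the 14 genes, and the value nearly equalled those of *A. fluviatilis* and *A. pubescens*. Alanine aminotransferase (GRMZM2G088064), which links pyruvate and alanine, was at 84.0 FPKM in *A. nepalensis*, against 413, 653 and 187 FPKM. It was counted as shifted lower at −2.12, and not when *A. fluviatilis* was left out or FPKM sums were made equal.

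The gene models of both decarboxylating enzymes of the C4 list were under 2 FPKM in *A. nepalensis*. The C4 NADP-malic enzyme (GRMZM2G085019), which frees CO2 from malate, was at 1.54 FPKM in *A. nepalensis*, against 1985, 3043 and 1695 FPKM in *A. anomala*, *A. fluviatilis* and *A. pubescens*. The congeners were close to each other at 11.09 ± 0.44 log2 units (SD, n = 3), and the difference was −9.74. A further NADP-malic enzyme gene (GRMZM2G122479) was at 57.3 FPKM in *A. nepalensis*, against 915, 2280 and 21.3 FPKM, inside the range, and without *A. pubescens* it was shifted lower. PEP carboxykinase (GRMZM2G001696), which frees CO2 from oxaloacetate, was at 1.42 FPKM in *A. nepalensis*, against 2772 and 3160 FPKM in *A. anomala* and *A. fluviatilis* and 1.25 FPKM in *A. pubescens*. *A. nepalensis* and *A. pubescens* were alike here, so the gene was not counted as shifted. Without *A. pubescens* it was, at −10.26. Unlike *A. pubescens*, the *A. nepalensis* library was low in both the C4 NADP-malic enzyme and PEP carboxykinase. Outside the comparison, both were also low in *B. ischaemum*, at 7.97 and 0 FPKM, and listed at 0 in *C. parviflorum*. *A. hirta* was at 0 and 2494 FPKM for these genes, and *I. cylindrica* at 4049 and 0 FPKM.

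The 2 listed gene models of pyruvate orthophosphate dikinase differed in opposite directions. GRMZM2G097457 was at 137 FPKM in *A. nepalensis*, against 12344, 21851 and 5580 FPKM in *A. anomala*, *A. fluviatilis* and *A. pubescens*, with a difference of −6.38. GRMZM2G306345 was at 196 FPKM in *A. nepalensis*, against 6.76, 3.32 and 3.66 FPKM in the same congeners, a difference of 5.19. In both cases *A. nepalensis* lay outside the congeners, first below and then above them. Fragments shared by similar sequences are divided by estimate, so values may move between the models of an enzyme. Summed over both, the enzyme was at 333 FPKM in *A. nepalensis*, against 12351, 21855 and 5583 FPKM, so the sum was lower by a difference of −5.10. The regulatory protein of the enzyme (GRMZM2G131286), which switches it off in the dark, was at 78.1 FPKM in *A. nepalensis*, against 461 FPKM in *A. anomala*, a listing at 0 in *A. fluviatilis* and 187 FPKM in *A. pubescens*. The *A. nepalensis* value was inside that wide range.

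The chloroplast transporters did not share a direction. The 2-oxoglutarate/malate transporter DiT1 (GRMZM2G383088) was at 8.64 FPKM in *A. nepalensis*, against 122, 829 and 177 FPKM in *A. anomala*, *A. fluviatilis* and *A. pubescens*, with a difference of −4.77. DiT2 (GRMZM2G086258), a dicarboxylate transporter of the same family, was at 34.3 FPKM in *A. nepalensis*, against 4.95, 7.59 and 6.84 FPKM, a difference of 2.26. DiT1 was thus below and DiT2 above all 3 congeners, though with a pseudocount of 10 the DiT2 difference was 1.43 and no longer counted. Summed, both were lower by a difference of −2.62. The PEP/phosphate translocator (GRMZM2G174107), which moves PEP across the envelope, was at 1.02 FPKM in *A. nepalensis*, against 24.8, 24.3 and 14.5 FPKM in the congeners. The triose phosphate translocator (GRMZM2G070605), which exports triose phosphate, was abundant in all 4, at 857 FPKM in *A. nepalensis*, against 1945, 2241 and 3538 FPKM in the congeners. It ranked 72nd in *A. nepalensis* and 25th, 25th and 16th in *A. anomala*, *A. fluviatilis* and *A. pubescens*, and the difference of −1.54 was not counted as shifted.

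The most abundant transcripts of the *A. nepalensis* leaf were those of the Rubisco small subunit and Rubisco activase. The Rubisco small subunit (GRMZM2G113033), a part of the enzyme that carboxylates ribulose bisphosphate, was at 11028 FPKM in *A. nepalensis*, against 1380, 2359 and 3209 FPKM in *A. anomala*, *A. fluviatilis* and *A. pubescens*. It ranked 1st in *A. nepalensis* and 39th, 22nd and 21st in those congeners, and the difference was 2.33 where the congeners averaged 11.09 ± 0.62 log2 units (SD, n = 3). Rubisco activase (GRMZM2G162200), which keeps Rubisco active, was at 7676 FPKM in *A. nepalensis*, against 152, 1581 and 521 FPKM. It ranked 2nd in *A. nepalensis* and 781st, 41st and 161st in the congeners, with a difference of 3.94. A further small subunit gene (GRMZM2G098520) was at 1619 FPKM in *A. nepalensis*, against a listing at 0 in *A. anomala*, 5.31 FPKM in *A. fluviatilis* and 0.35 FPKM in *A. pubescens*. For these 3 genes *A. nepalensis* lay above every congener. Among the 14088 genes above 0 in all 4 libraries, 33.4% did so too.

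The Calvin cycle list as a whole did not go one way. Of its 6 gene models, phosphoribulokinase (GRMZM2G026024) had no line under that identifier. Of the other 5, 3 were shifted higher and 2 lower, with a median difference of 2.33. Over all 25211 genes 8.99% were shifted higher and 11.4% lower. Most names beyond the C4 list were recalled after values had been seen, so the counts of this list are description only. The median of 2.33 is the value of GRMZM2G113033, which was above 0 in all 4 libraries. The genes listed at 0 in 1 library lay on either side of it, at −3.13 and 9.63. Chloroplast glyceraldehyde-3-phosphate dehydrogenase A (GRMZM2G337113), which makes triose phosphate, was at 771 FPKM in *A. nepalensis*, against 2364, 8856 and 3266 FPKM in *A. anomala*, *A. fluviatilis* and *A. pubescens*. It was below all of them by a difference of −2.41, and without *A. fluviatilis* it was no longer counted. The further activase gene (GRMZM2G162282) was listed at 0 in *A. nepalensis* and was weak in the congeners, at 1.48, 8.57 and 27.4 FPKM. Both activase genes summed gave a difference of 3.90. With a pseudocount of 10 this gene, carbonic anhydrase 2 and the PEP/phosphate translocator were no longer counted.

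Within each library, Rubisco small subunit exceeded PEP carboxylase in *A. nepalensis* and was below it in the congeners. With the listed genes of each enzyme summed, small subunit minus PEP carboxylase was 5.65 log2 units in *A. nepalensis*, against −1.33 in *A. anomala*, −3.39 in *A. fluviatilis* and −1.21 in *A. pubescens*. Small subunit minus pyruvate orthophosphate dikinase was 5.24 log2 units in *A. nepalensis*, against −3.16, −3.21 and −0.80 in the same congeners. These balances are taken within a library and do not depend on how the libraries were scaled. The one against NADP-malic enzyme was 7.72 log2 units in *A. nepalensis*, against −1.07, −1.17 and 0.90, so *A. pubescens* shared the sign of *A. nepalensis* there. Outside the comparison, summed small subunit also exceeded summed PEP carboxylase in *B. ischaemum* (5204 against 19.05 FPKM) and *C. parviflorum* (4287 against 12.85 FPKM). It was below in *A. hirta* (4764 against 4927 FPKM) and *I. cylindrica* (36.7 against 11746 FPKM). Small subunit held 1.80% of all FPKM in *A. nepalensis*, 1.49% in *A. hirta*, 1.83% in *B. ischaemum*, 2.02% in *C. parviflorum* and 0.0105% in *I. cylindrica*.

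Genes that most cells use were set beside these as description. Most names beyond the C4 list were recalled after values had been seen, so this list is no independent check of level. Of 10 gene models, 4 were shifted higher, 1 lower and 5 neither, and their median difference was 0.57. Over all 25211 genes those shares were 8.99% higher and 11.4% lower, with a median of −0.23. Actin (GRMZM2G126010), a cytoskeletal protein, was at 56.7 FPKM in *A. nepalensis*, against 268, 202 and 144 FPKM in *A. anomala*, *A. fluviatilis* and *A. pubescens*, with a difference of −1.79 that reached the mark without *A. pubescens*. A gene model of cytosolic glyceraldehyde-3-phosphate dehydrogenase (GRMZM2G046804), an enzyme of glycolysis, was at 21.8 FPKM in *A. nepalensis*, against 747, 1510 and 1302 FPKM. A further model of that enzyme (GRMZM2G180625) was at 324 FPKM in *A. nepalensis*, against a listing at 0 in *A. anomala* and 78.7 and 31.0 FPKM in *A. fluviatilis* and *A. pubescens*. As with the dikinase, 1 gene model stood below and the other above all congeners, and their sum, with a difference of −1.75, was at 346 FPKM in *A. nepalensis*, against 747, 1589 and 1333 FPKM. Folylpolyglutamate synthase (GRMZM2G393334), an enzyme of folate metabolism, was at 26.1 FPKM in *A. nepalensis*, against 24.6, 28.5 and 16.7 FPKM in the congeners, inside their range. The membrane protein MEP (GRMZM2G018103) was at 125 FPKM in *A. nepalensis*, against 32.2, 114 and 72.5 FPKM in the congeners, above all of them by a difference of 0.94. Both genes were close to the nearest congener. The ubiquitin carrier protein (GRMZM2G102471), which passes ubiquitin to target proteins, was at 985 FPKM in *A. nepalensis*, against 2.11, 492 and 485 FPKM, and it was not counted as shifted without *A. anomala*. The other members shifted higher were a model of cullin (GRMZM2G166694), a scaffold of ubiquitin ligases, at 133 FPKM in *A. nepalensis* and 2.79, 1.98 and 58.4 FPKM in the congeners, and leunig. The leunig model (GRMZM2G425377), a co-repressor of transcription, was at 82.8 FPKM in *A. nepalensis* and 5.14, 10.1 and 6.67 FPKM in the congeners. The models called elongation factor 1-alpha (GRMZM2G153541) and polyubiquitin (GRMZM2G409726) were under 2.5 FPKM in all 4 libraries, and their identity is unsure. The 10 genes together made up 0.250% of all FPKM in *A. nepalensis*, against 0.135%, 0.300% and 0.255% in *A. anomala*, *A. fluviatilis* and *A. pubescens*. This total was inside the congeners' range, but the ubiquitin carrier protein gave 985 of its 1756 FPKM in *A. nepalensis*. In the same congeners that gene gave 2.11 of 1081.5, 492 of 2441 and 485 of 2117 FPKM. The total thus does not show that the other genes were level.

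The *A. nepalensis* library listed fewer genes than its congeners. It had 18023 genes above 0, against 20468 in *A. anomala*, 20388 in *A. fluviatilis* and 20607 in *A. pubescens*. Its FPKM summed to 701722, against 801499, 813219 and 829005. In all, 2768 of the 16856 genes above 0 in each congener were listed at 0 in *A. nepalensis*, and 1051 of its 18023 genes were at 0 in each congener. The gap was not confined to weak genes: of 7327 genes at 10 FPKM or more in each congener, 8.84% were at 0 in *A. nepalensis*. Set against the other 3 libraries in the same way, that share was 1.36% for *A. anomala*, 1.40% for *A. fluviatilis* and 2.13% for *A. pubescens*. The counts of strongly expressed genes were alike, with 1176 genes at 100 FPKM or more in *A. nepalensis* and 1310, 1342 and 1176 in the congeners.

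**Figure D2:**
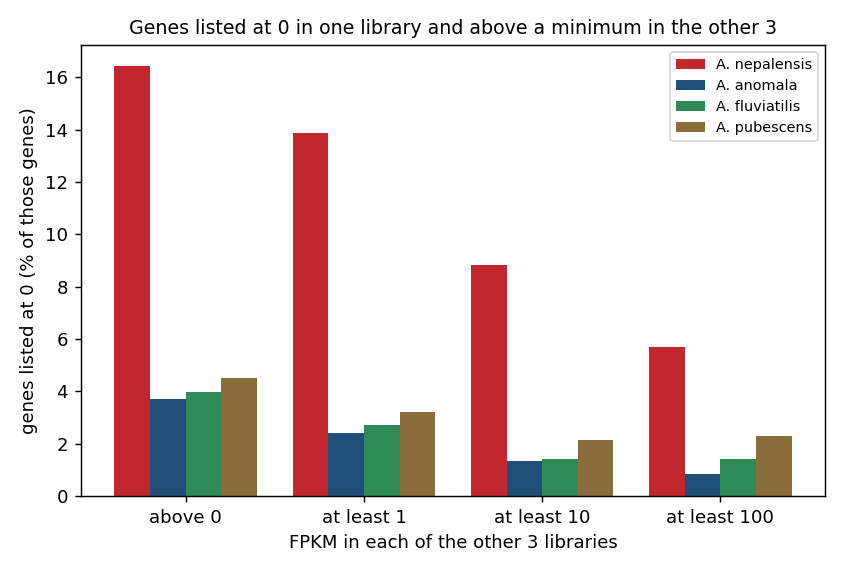
Share of genes listed at 0 in each of the 4 libraries, in percent, among genes above 0 or at 1, 10 or 100 FPKM or more in each of the other 3 libraries. The *A. nepalensis* share was smaller at higher minimums but was the highest of the 4 at every minimum, and among genes at 100 FPKM or more it was 5.70%, against 0.865% to 2.29% for the congeners.

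Among the 14088 genes above 0 in all 4 libraries, *A. nepalensis* had larger differences from the other 3 libraries than any congener had. The median difference was close to 0, at 0.08 log2 units, while the SD over genes was 1.44. *A. nepalensis* lay above all 3 congeners in 4708 genes (33.4%) and below all 3 in 3981 (28.3%). Of these genes, 904 (6.42%) were shifted higher and 984 (6.98%) lower. With each library scaled to the same FPKM sum, which moved the median over all these genes to 0.28, the counts were 1172 higher and 835 lower. With a pseudocount of 10 they were 302 and 331. Set against the other 3 libraries by the same rule, 307 genes were shifted higher and 202 lower in *A. anomala*, 402 and 524 in *A. fluviatilis*, and 425 and 374 in *A. pubescens*. These counts come from comparisons that share libraries.

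**Figure D3:**
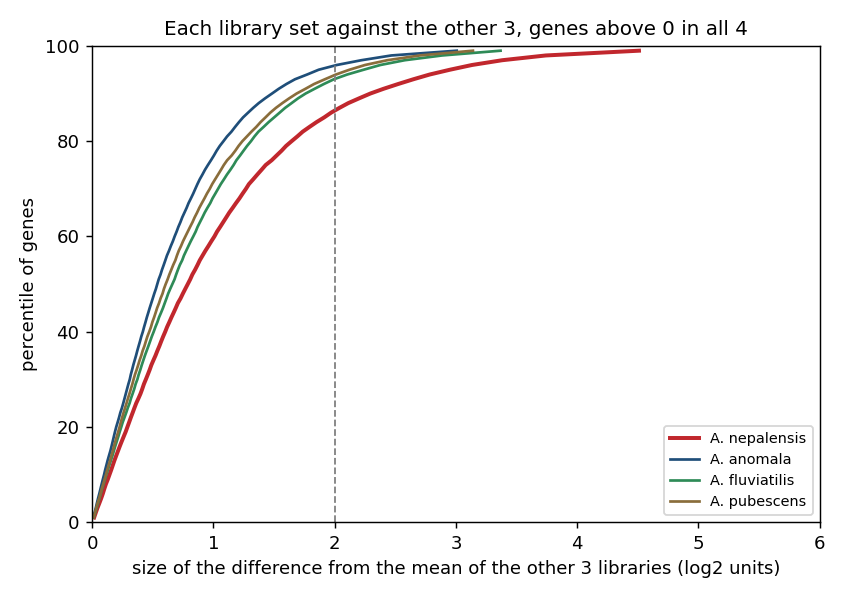
Percentile of the 14088 genes above 0 in all 4 libraries (vertical axis) against the size of the difference between 1 library and the mean of the other 3, in log2 units (horizontal axis), with a dashed line at 2 log2 units. The *A. nepalensis* curve lies to the right of the others, with a median size of 0.79, against 0.54 for *A. anomala*, 0.66 for *A. fluviatilis* and 0.61 for *A. pubescens*.

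Compared in pairs, *A. nepalensis* was similarly far from each congener. The median size of the difference was 0.83 log2 units from *A. anomala*, 0.96 from *A. fluviatilis* and 0.88 from *A. pubescens*. Between the congeners it was 0.66 for *A. anomala* and *A. fluviatilis*, 0.63 for *A. anomala* and *A. pubescens*, and 0.75 for *A. fluviatilis* and *A. pubescens*. Spearman's rho across the 14088 genes, which are not independent, was 0.639, 0.604 and 0.620 between *A. nepalensis* and *A. anomala*, *A. fluviatilis* and *A. pubescens*. It was 0.739 to 0.813 between congeners. By both measures each of the 3 pairs with *A. nepalensis* was less alike than each of the 3 pairs without it, and the pairs share libraries. The 100 most abundant genes did not show that order throughout. *A. nepalensis* shared 41 of its 100 with *A. anomala*, 28 with *A. fluviatilis* and 46 with *A. pubescens*, against 55 between *A. anomala* and *A. fluviatilis*, 60 between *A. anomala* and *A. pubescens* and 45 between *A. fluviatilis* and *A. pubescens*. Of the 100 most abundant genes of *A. nepalensis*, 45 were in none of the other 3 such lists, against 20 for *A. anomala*, 38 for *A. fluviatilis* and 27 for *A. pubescens*.

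**Figure D4:**
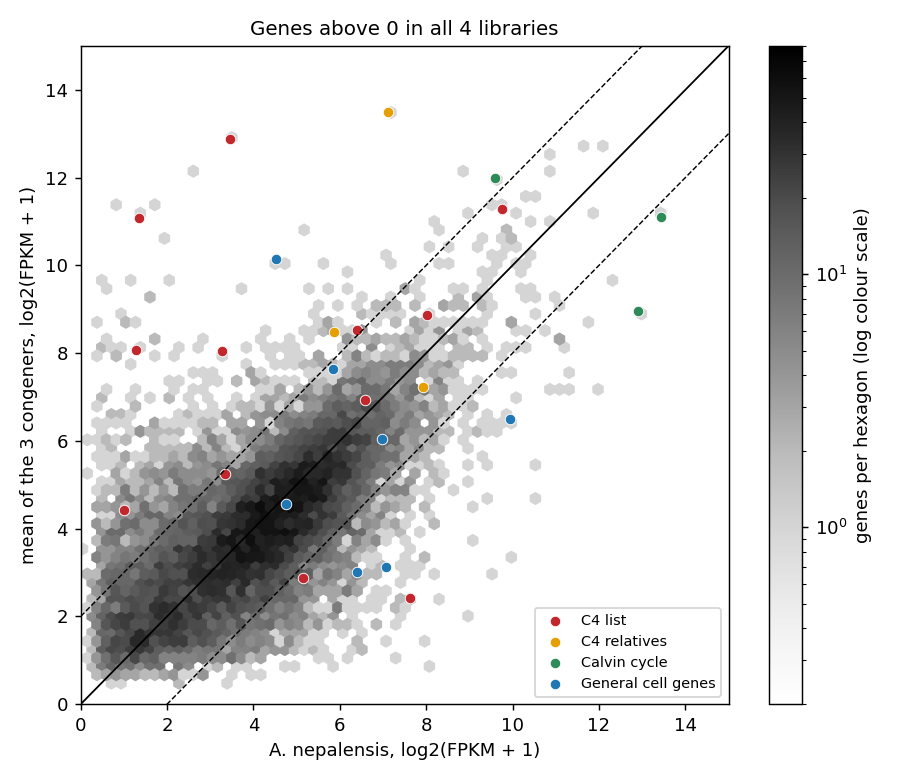
Level of each of the 14088 genes in *A. nepalensis* (horizontal axis) and the mean of the 3 congeners (vertical axis), both in log2(FPKM + 1), with grey hexagons for the number of genes and coloured points for listed genes above 0 in all 4. The solid line marks equal levels and the dashed lines differences of 2 log2 units. The C4 NADP-malic enzyme at −9.74 and the C4 PEP carboxylase at −9.41 lie far above the line, and Rubisco activase at 3.94 lies below it.

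The congeners lay within 1 log2 unit of each other in 312 of the 904 genes shifted higher (34.5%) and in 331 of the 984 shifted lower (33.6%), against 43.0% of all 14088. Differences of 6 log2 units or more were found in 6 genes shifted higher and 36 shifted lower.

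Several of the largest differences were found in genes outside the lists, for which no name is given. GRMZM2G025491 was at 270 FPKM in *A. nepalensis*, against 1.07, 0.59 and 1.08 FPKM in *A. anomala*, *A. fluviatilis* and *A. pubescens*, with a difference of 7.16. GRMZM2G147491 was at 470 FPKM in *A. nepalensis*, against 2.21, 3.27 and 4.05 FPKM, a difference of 6.84. In both the congeners were close together and far below *A. nepalensis*. In the other direction, GRMZM2G149428 was at 0.80 FPKM in *A. nepalensis*, against 1106, 3181 and 5536 FPKM, and its difference of −10.55 was larger in size than those of the C4 NADP-malic enzyme and PEP carboxylase. GRMZM2G158394 was at 2.21 FPKM in *A. nepalensis*, against 1851, 4849 and 2013 FPKM, a difference of −9.68.

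A smaller set of genes was abundant on one side and nearly unlisted on the other. With *A. nepalensis* on the high side, 40 genes (0.152% of the 26274) were at 100 FPKM or more there and under 1 FPKM in each congener, which is 3.40% of its 1176 genes at 100 FPKM or more. With *A. nepalensis* on the low side, another 40 genes (0.152%) were under 1 FPKM there and at 100 FPKM or more in each congener, which is 7.60% of the 526 genes at that level in each congener. Set against the other 3 libraries by the same rule, *A. anomala* had 12 genes on the high side and 3 on the low side, *A. fluviatilis* 12 and 7, and *A. pubescens* 17 and 9. Quantile normalization gave 45 genes high and 28 low in *A. nepalensis*. Without *A. fluviatilis* the low set held 67 genes, without *A. pubescens* 79 and without *A. anomala* 47.

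In the high set, *A. nepalensis* values ran from 102 to 4221 FPKM with a median of 206, and 32 of the 40 genes were listed at 0 in every congener. GRMZM2G120619 was at 4221 FPKM in *A. nepalensis*, against 0, 0.41 and 0 FPKM in *A. anomala*, *A. fluviatilis* and *A. pubescens*. GRMZM2G402936 was at 4087 FPKM in *A. nepalensis* and listed at 0 in the congeners. Together the 40 genes held 2.70% of all FPKM in *A. nepalensis*. In the low set, 30 of the 40 genes were listed at 0 in *A. nepalensis*, and congener values ran from 103 to 6685 FPKM. Carbonic anhydrase 1 was the single listed enzyme among them. GRMZM2G149428, described above, was also in this set, as was GRMZM2G085646, listed at 0 in *A. nepalensis* and at 1025, 1070 and 2566 FPKM in the congeners. The low set held 0.000772% of all FPKM in *A. nepalensis*, against 2.11%, 2.99% and 2.86% in *A. anomala*, *A. fluviatilis* and *A. pubescens*.

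The limits of these sets were not marked by a gap in the values. On the high side the lowest *A. nepalensis* value inside was 101.8 FPKM and the highest outside was 96.4 FPKM. On the low side the lowest congener value inside was 102.7 FPKM and the highest outside was 99.7 FPKM.

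**Figure D5:**
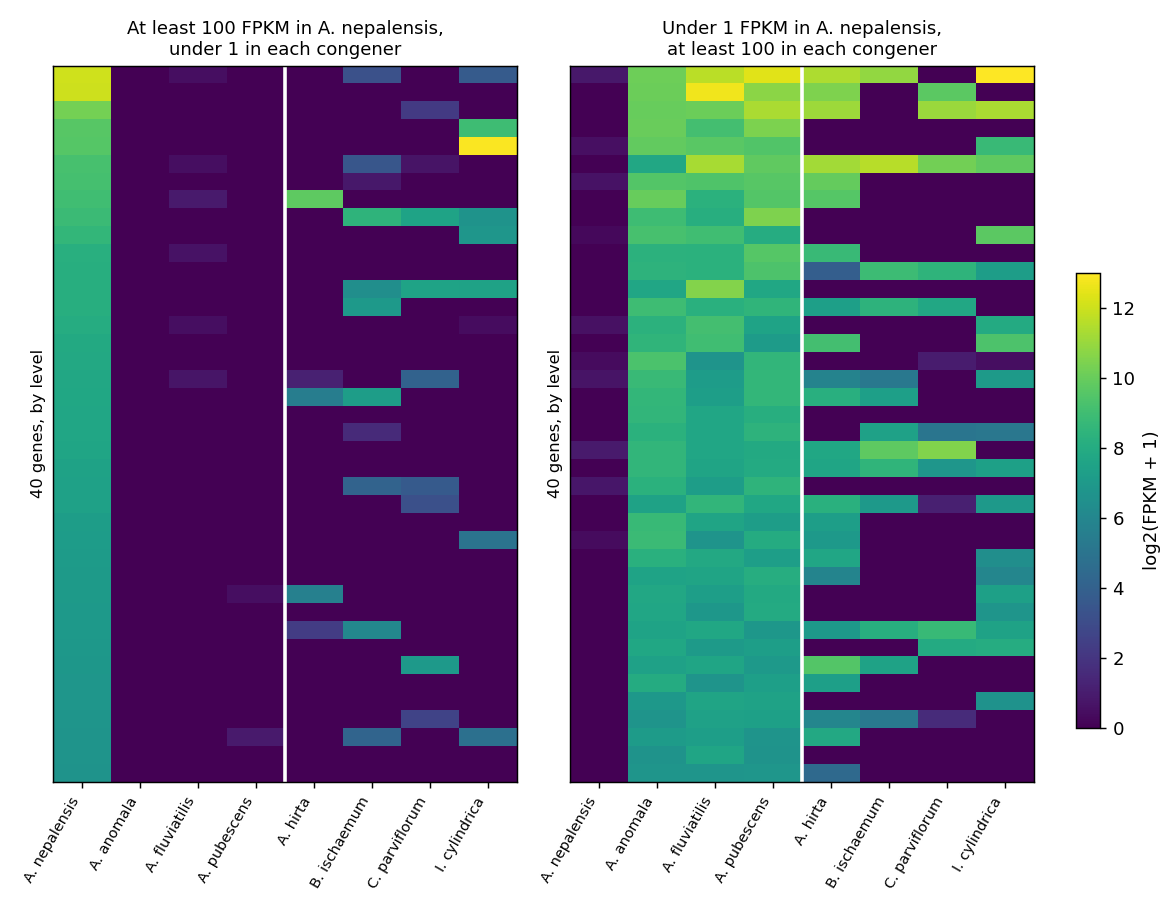
Level in log2(FPKM + 1), as colour, of the 40 genes high (left) and the 40 genes low (right) in *A. nepalensis*, 1 gene per row in order of level and 1 library per column. A white line divides the 4 libraries that define the sets from the 4 others of the series, in which 23 of the genes on the left and 34 of those on the right were above 0 in at least 1 library (57.5% and 85% of the sets, against 88.3% and 92.8% of all genes at 100 FPKM or more on the same side).

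The 4 libraries outside the comparison, *A. hirta* and the 3 of other genera, had no part in choosing these genes. The backgrounds below were not chosen for values under 1 FPKM on the other side, as the sets were, so the shares are description only. The largest number of genes of the high set above 0 in any of them was 11. Of its 40 genes, *A. hirta* listed 12.5% above 0, *Bothriochloa ischaemum* 27.5%, *Capillipedium parviflorum* 22.5% and *Imperata cylindrica* 22.5%. Of all 1176 genes at 100 FPKM or more in *A. nepalensis*, the same libraries listed 53.1%, 46.7%, 42.3% and 55.4%. The low set was closer to its own background in *A. hirta*, which listed 62.5% of the 40 genes and 64.8% of all 526 genes at 100 FPKM or more in each congener. In the other genera the shares of the low set and of those 526 genes above 0 were 32.5% against 53.2% in *B. ischaemum*, 32.5% against 49.0% in *C. parviflorum* and 50% against 62.2% in *I. cylindrica*. At 100 FPKM or more, the shares of the low set in the other genera were near those of the 526 genes, which include the 40. They were 27.5% against 25.9% in *B. ischaemum*, 22.5% against 20.3% in *C. parviflorum* and 37.5% against 33.1% in *I. cylindrica*. In *A. hirta* the share was 50% against 37.3%. For the high set these shares were 2.5% against 19.4% of the 1176 genes in *A. hirta*, 7.5% against 13.3% in *B. ischaemum*, 7.5% against 11.3% in *C. parviflorum* and 12.5% against 16.9% in *I. cylindrica*. No test was made of these shares.

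The protein model that carried most of a gene's FPKM was also compared. Of 3692 genes with several models whose highest model was the same in all 3 congeners, 576 (15.6%) had another highest model in *A. nepalensis*. Set against the other 3 libraries in the same way, the share was 8.65% for *A. anomala*, 9.79% for *A. fluviatilis* and 11.6% for *A. pubescens*. A gene outside that count, since it was listed at 0 in *A. anomala*, was the cytosolic glyceraldehyde-3-phosphate dehydrogenase GRMZM2G180625: all 324 FPKM of *A. nepalensis* fell on its second model, and the 78.7 and 31.0 FPKM of *A. fluviatilis* and *A. pubescens* fell on its first.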

How the data were processed

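The authors deposited FPKM values for 36698 lines, of which 872 do not follow the GRMZM protein model naming. Those lines, with identifiers such as AC208110, were kept. RSEM was used, per the submitters' processing notes, and which version or aligner was used is not given in the sources used here. Models were summed here to 26274 genes, 7292 of them with more than 1 line. Species were matched by column names. A deposited list of maize identifiers was not used.

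The members and gene lists were chosen with earlier results of these data known. Enzyme names come from general knowledge of maize gene models, and most of those beyond the 14 of the C4 list were recalled after values had been seen. The genes named are all listed genes and, in each direction of each comparison, at most 2 others, chosen among those with the largest difference or highest level. The call rules were run on simulated data with planted changes and little noise, which checks the code and not how the rules perform on these libraries. Alternatives were other pseudocounts, filters, scalings and limits, the highest model per gene, and leaving out each congener; equal FPKM sums and enzyme sums were added after seeing the data. Python 3.11.15 was used with matplotlib 3.10.9, scipy 1.17.1, numpy 2.4.6 and pandas 2.3.3. Differences of log2(FPKM + 1) were computed from the deposited values, with no test.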

Additional observations from a re-analysis of the deposited data

How the results depend on the processing

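Of the listed genes counted as shifted, none changed sign under another pseudocount, scaling or left-out congener, or with the highest protein model. Summing related gene models, added after seeing the data, turned the sign of 4 genes counted as shifted: pyruvate orthophosphate dikinase GRMZM2G306345 to −5.10, DiT2 to −2.62, cytosolic glyceraldehyde-3-phosphate dehydrogenase GRMZM2G180625 to −1.75 and Rubisco activase GRMZM2G162282 to 3.90. A further 5 listed genes, none counted as shifted, changed sign in at least 1 of the other settings. With a pseudocount of 10, 302 genes were shifted higher and 331 lower. Without the filter on listing they were 2266 and 2868, with a median of −0.23. The median was 0.22 with quantile normalization and 0.28 with equal FPKM sums. The 2 sets of genes abundant on one side held 79 genes high and 114 low in *A. nepalensis* at 50 FPKM, and 21 and 17 at 200 FPKM. With the mean of the congeners in place of each one, the low set held 86 genes. Without 1 congener at a time, the counts were 957 to 1132 shifted higher, 1034 to 1108 shifted lower, 43 to 55 in the high set and 47 to 79 in the low set, with a median of 0.04 to 0.13. These rules take in fewer or more genes by construction; other causes were not tested. No paired analysis was possible because each species has 1 library. Depth is unknown, so a listing at 0 has no limit of detection.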

Other observations

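Further features of the genes abundant on one side were counted after their values were seen. Identifiers of the GRMZM5G series made up 5 of the 40 genes high in *A. nepalensis* (12.5%), against 5.53% of its 1176 genes at 100 FPKM or more. They also made up 5 of the 40 genes low in *A. nepalensis* (12.5%), against 5.89% of the 526 genes at 100 FPKM or more in each congener. Of the 40 genes high in *A. nepalensis*, 17 (42.5%) were listed at 0 in all 4 libraries outside the comparison, against 11.7% of the 1176 genes. Of the 40 genes low in *A. nepalensis*, 6 (15%) were, against 7.22% of the 526 genes. Neither background was chosen for values under 1 FPKM on the other side, as the sets were.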
